A study of Mus musculus with 2 samples.

Results

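Endothelial cells, which line the blood and lymphatic vessels of the prostate, were examined in single-cell RNA sequencing of mice that express a human androgen receptor transgene (hARtg) in the Osr1 lineage. A cell was taken as endothelial when at least 3 of 6 vascular genes (Pecam1, Cdh5, Kdr, Flt1, Plvap, Egfl7) stood above 0.5 on the deposited natural log scale, while the epithelial gene Epcam stood below 1 and the leukocyte gene Ptprc was at 0. This rule found 197 of 15742 cells. The series holds 1 library of prostate with prostatic intraepithelial neoplasia (PIN) at 6 months of age and 1 library of prostate cancer (PCa) at 12 months, both from R26 mTmG/hAR:Osr1 Cre/+ mice. In these mice Cre made under Osr1 control switches on hARtg and turns the membrane Tomato reporter into membrane GFP (mGFP), so both libraries carry the transgene, the reporter and Cre, and no library without them was analysed here. The deposited table does not say which tissue a cell came from. Its cell barcodes carry 1 of 2 endings, called here barcode set 1 and barcode set 2, and a difference between the sets cannot be told apart from a difference in tissue, age or library.

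Vascular endothelium is a barrier of flat cells held together by VE-cadherin and claudins, and it depends on VEGF signals through Kdr. When vessels sprout, leading tip cells take on a genetic programme that includes Esm1, Apln, Angpt2 and Cxcr4, and new vessel walls are laid on a basement membrane of type IV collagen, laminins and nidogen. Resting capillaries exchange water and lipid, venules carry the selectins and chemokine receptors used by leukocytes, and endothelial cells exposed to interferon-gamma can display antigen on MHC class II, which is otherwise a feature of professional antigen-presenting cells.

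Set 1 held 37 endothelial cells among 6332 (0.584%, exact 95% interval 0.412 to 0.805) and set 2 held 160 among 9410 (1.70%, 1.45 to 1.98). The median endothelial cell carried 6403 UMIs (unique molecular identifiers, 1 per captured transcript) and 2202 genes in set 1, and 9323 UMIs and 2921 genes in set 2. Fibroblasts, taken as cells with Col1a2 and Dcn at 1 or more that did not meet the endothelial rule, served as the stromal comparison and formed similar shares of both sets, with 153 cells (2.42%) and 236 cells (2.51%). Leukocytes made up 11.1% of set 1 and 1.79% of set 2, and epithelial cells 77.1% and 70.8%. These groups do not cover all cells. Cells with Epcam below 1, Ptprc at 0 and none of the 6 vascular genes above the limit numbered 235 in set 1 and 2117 in set 2. Such cells were left unassigned unless they met the fibroblast rule. Levels are given as counts per 1000000 UMIs (CPM) summed over the cells of a group, and the ranges in brackets are exact 95% intervals that cover counting error only. A gene with 0 UMIs may stand at up to 11.2 CPM in set 1 and 1.58 CPM in set 2, the level that 3 UMIs would give. With 1 library for each tissue and no map from cells to tissue, no difference was tested against replicate error.

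Promoters were read for genes on which the results below turn, to show the letters of well-known motifs upstream of identity and antigen-presentation genes. ETS factors such as Erg bind GGAA cores, searched here as AGGAAG and CGGAAG on both strands, and the Y box of MHC class II genes was searched as CTGATTGG on both strands. The stretches are the 160 bases before the annotated start in RefSeq (GRCm38.p6), printed 5′ to 3′ on the gene's strand, with the matched letters in capitals. H2-Aa lies at chr17:34287824-34287983 (minus strand), H2-Eb1 at chr17:34305707-34305866 (plus strand), Flt1 at chr5:147726012-147726171 (minus strand) and Emcn at chr3:137340918-137341077 (plus strand).
H2-Aa: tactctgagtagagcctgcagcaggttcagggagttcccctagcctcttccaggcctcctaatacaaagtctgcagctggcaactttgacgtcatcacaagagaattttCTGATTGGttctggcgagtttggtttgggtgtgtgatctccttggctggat
H2-Eb1: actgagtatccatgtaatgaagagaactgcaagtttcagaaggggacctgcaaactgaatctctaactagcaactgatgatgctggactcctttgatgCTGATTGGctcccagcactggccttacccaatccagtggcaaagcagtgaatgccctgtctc
Flt1: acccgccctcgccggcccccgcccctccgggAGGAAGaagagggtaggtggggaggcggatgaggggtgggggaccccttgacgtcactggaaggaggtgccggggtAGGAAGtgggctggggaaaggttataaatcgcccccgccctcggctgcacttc
Emcn: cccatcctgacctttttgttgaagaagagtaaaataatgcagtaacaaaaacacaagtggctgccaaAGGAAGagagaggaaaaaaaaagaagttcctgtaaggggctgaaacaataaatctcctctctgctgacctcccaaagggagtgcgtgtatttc
Within 250 bases upstream, the Y box letters stood in 2 of the 5 windows found for MHC class II genes (40.0%), those of H2-Aa and H2-Eb1, and in 3.83% of all 32851 windows. An ETS match stood in 10 of 15 windows of the endothelial identity list (66.7%) and in 6 of 14 windows of the tip cell list (42.9%), beside 2 of 5 windows of MHC class II genes (40.0%, those of H2-DMa and H2-DMb1) and 39.2% of all windows. The Y box letters were in no window of those 2 vascular lists. These matches describe letters, and no binding was measured.

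The cells near the edge of the rule are given as a description, since the rule genes are low in them by construction. All 6 rule genes were above the limit in 27 of 37 cells of set 1 and in 110 of 160 cells of set 2. Only 1 and 8 cells passed with exactly 3 genes, and the 8 cells of set 2 had 89.7 CPM of Emcn (endomucin, a sialoglycoprotein of capillaries and veins) and 299 of Esam (an adhesion molecule of endothelial junctions), while the cell of set 1 had 1121 CPM of Emcn and 1961 of Cldn5. Just outside the limit, with exactly 2 genes, stood 7 and 34 cells, and the 34 of set 2 had 23.9 CPM of Emcn and 164 of Esam. A further 5 and 43 cells reached 3 genes but were left out for Epcam, and 6 and 0 were left out for Ptprc. The median log2 ratio given below for each gene list is read beside the median of all genes tested, which was 0.19 for endothelial against fibroblast cells, 0.07 for set 2 against set 1 in endothelial cells and 0.02 for the same ratio in fibroblasts.

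The endothelial label was checked on vascular genes that the rule did not use, and they were present in both sets and far lower in fibroblasts. Emcn stood at 1150.2 CPM (1025 to 1286) in set 1 and 1191 (1142 to 1241) in set 2, and was detected in 36 of 37 and 149 of 160 endothelial cells. In fibroblasts it stood at 28.2 and 4.05 CPM. Cldn5, the main claudin of endothelial tight junctions, had no UMI in the fibroblasts of either set, from which cells meeting both rules had been left out, and its endothelial level of 863 CPM (755 to 981) and 353 CPM (327 to 381) was at least 429-fold and at least 174-fold higher, taking 3 UMIs as the fibroblast limit. Cldn5 was nonetheless detected in only 16 of 37 and 78 of 160 cells. The endothelial receptor Tie1 (355 and 176 CPM), the slit receptor Robo4 (239 and 257), the adhesion receptor Adgrl4 (497 and 370.3), the C1q receptor Cd93 (803 and 762) and the TGF-beta co-receptor Eng (822 and 888) were each present in both sets. Of the 17 identity genes that could be compared, all 17 were at least 4-fold above fibroblasts in both sets, with a median log2 ratio of 5.50. This count includes the rule genes and cells chosen by them, so it is a description and not evidence.

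**Figure D1:**
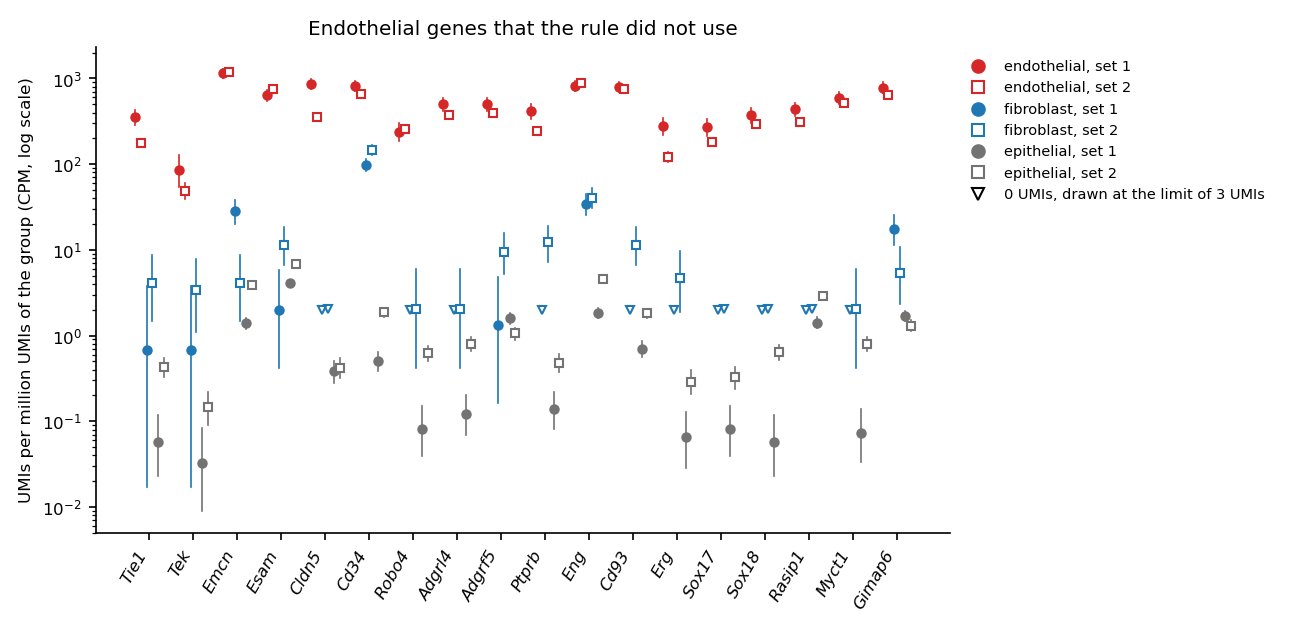
Levels of 18 endothelial genes that were not used in the rule, as CPM on a log axis, in endothelial cells, fibroblasts and epithelial cells of each barcode set. Bars are 95% counting intervals and triangles mark genes with 0 UMIs at the 3-UMI limit. Endothelial levels lie above both other cell types, as for Cldn5 with 863 and 353 CPM against 0 UMIs in fibroblasts.

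The rule genes themselves, given as description, stood at 1475 CPM (1333 to 1628) and 856 CPM (815 to 899) for Pecam1, an adhesion molecule of cell contacts. VE-cadherin (Cdh5) was level between the sets at 1135 and 1144 CPM, as were the angiogenic factor Egfl7 at 1486 and 1437 CPM and the diaphragm protein Plvap at 2050.2 and 1829 CPM. The VEGF receptors Kdr (982 and 688 CPM) and Flt1 (1579.7 and 1069 CPM) were lower in set 2. Fibroblasts held between 4.03 and 10.1 CPM of Pecam1 and Cdh5.

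Markers of other cell types were sparse in set 1 and less so in set 2. The 10 leukocyte markers summed to 7.47 and 67.1 CPM, of which Cd52 made 53.9 CPM in set 2, and the erythroid and platelet markers to 11.2 and 11.1 CPM. The fibroblast markers included Dcn, at 14.9 and 156 CPM in endothelial cells against 6749 and 7258 CPM in fibroblasts. In set 2, 4 endothelial cells also met the fibroblast rule, and 23 of the 160 had at least 3 mural or at least 3 fibroblast genes, while no cell of set 1 did. The keratin Krt8 stood at 112 and 817 CPM in endothelial cells, and 85.1% of its UMIs in set 2 came from 27 cells. Without cells with that much Krt8, Cd74 stood at 4582 and 22.5 CPM, Esm1 at 203 and 1463 CPM and Gpihbp1 at 784 and 3911 CPM in sets 1 and 2, near the values over all cells given below. Of the 15742 cells, 155 in set 1 and 175 in set 2 were called doublets at a Scrublet score above 0.25, since the automatic limit called none, and 2 endothelial cells of each set were among them.

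Compared with fibroblasts, endothelial cells had higher levels of lipid-handling, junction and vascular transcription factor genes and lower levels of most fibroblast markers. Of 10 fibroblast markers tested, 9 were at least 4-fold lower in endothelial cells, and of 12 basement membrane genes 4 were at least 4-fold higher and none lower. Of 3350 genes with enough signal, 293 were at least 4-fold higher in endothelial cells in both sets (8.75%) and 234 at least 4-fold lower (6.99%). The cells were chosen by expression, so these counts describe the groups and test nothing. Gpihbp1, which holds lipoprotein lipase on the capillary wall, led the ratios with 784 CPM (682 to 898) and 3369 CPM (3287 to 3452) against 0 and 5.41 CPM in fibroblasts, at least 389.6-fold higher in set 1 and 623-fold in set 2. Next to it stood genes of the vessel lining such as Myct1 (598 and 512 CPM), Rasip1, a Ras-interacting protein needed for vessel lumens (437 and 309 CPM, no UMI in fibroblasts), and the GTPase gene Gimap6 (784 and 646 CPM). The water channel Aqp1, the fatty acid carrier Fabp4 and the proteoglycan Esm1 were also among the 15 highest.

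Transcription factors that specify endothelium were part of this difference. Of 11 tested, 8 were at least 4-fold above fibroblasts and none was 4-fold below, beside 8.75% and 6.99% of all genes. Their median log2 ratio was 3.54. Sox17 (269 and 182 CPM) and Sox18 (373 and 292 CPM), SOX factors of arterial and lymphatic development, had no UMI in any fibroblast. Erg, an ETS factor that maintains vascular identity, stood at 276 and 121 CPM and was 2.28-fold higher in set 1 than in set 2. No other factor of the 11 passed 2-fold between the sets.

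The genes lowest against fibroblasts were those of a secretory stroma. Cxcl14, a chemokine, stood at 0 and 20.1 CPM in endothelial cells against 5183 and 1203 CPM in fibroblasts, and Apod, a lipocalin, at 0 and 30.1 CPM against 2209 and 3453. Wif1, a secreted Wnt inhibitor, stood at 0 and 76.6 CPM against 1587 and 1189, and the enkephalin precursor Penk at 0 and 39.6 CPM against 1313 and 1259. Jchain, the joining chain of secreted immunoglobulins, stood at 3.73 and 0.528 CPM against 3404 and 687. All of these except Jchain had more signal in the endothelial cells of set 2, where cells with fibroblast genes were found, and their part in the result was not tested.

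**Figure D2:**
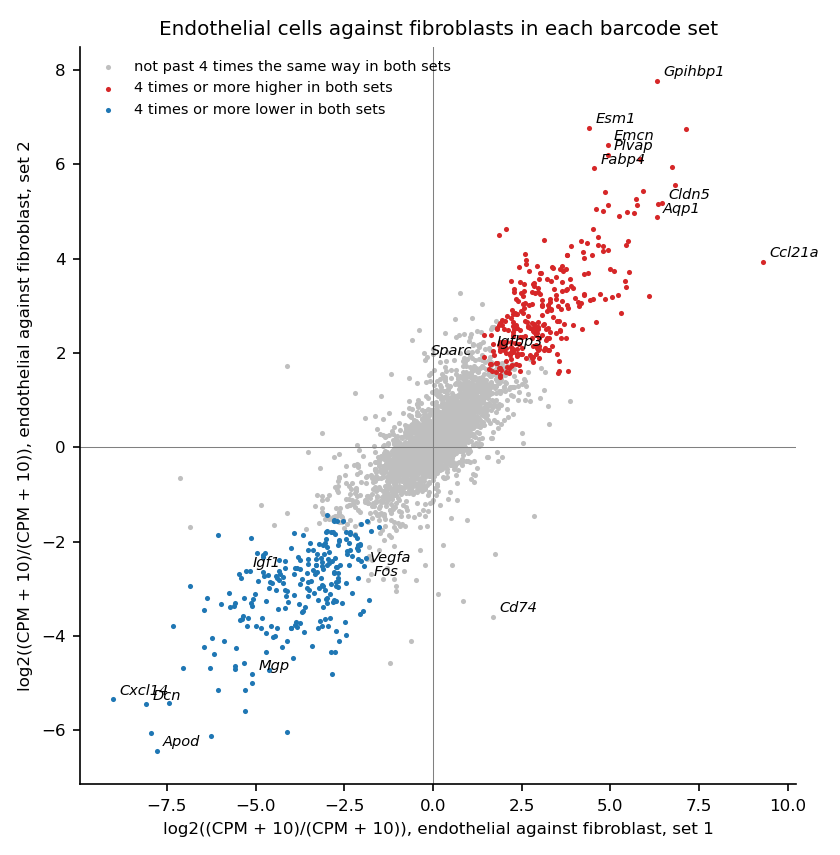
Each point is a gene, placed by its log2 ratio of endothelial to fibroblast level in barcode set 1 (horizontal) and barcode set 2 (vertical). Coloured points are the 293 genes at least 4-fold higher and the 234 at least 4-fold lower in both sets, and grey points are the others.

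The VEGF and Tie pathway showed its receptors in endothelial cells and part of its ligands in fibroblasts. Of 9 genes tested, 6 were at least 4-fold above fibroblasts, beside 8.75% of all genes. The list includes the rule genes Kdr and Flt1, by which the cells were chosen, so this count is a description and not evidence. The ligand Vegfa was the 1 gene below (29.9 and 33.8 CPM against 144 and 241), beside 6.99% of all genes. Angpt1, the Tek agonist made by stroma, had no UMI in endothelial cells of either set and stood at 12.1 and 55.4 CPM in fibroblasts. The co-receptor Nrp1 stood at 560.2 and 488 CPM in endothelial cells, and Flt4, the receptor of VEGF-C, at 97.1 and 99.3 CPM. Angpt2, the ligand that endothelial cells make themselves, stood at 153 and 381 CPM, with 2.01 and 18.2 CPM in fibroblasts.

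Between the barcode sets, endothelial cells differed in antigen presentation, in genes of sprouting and in genes of lipid transport. Of 3640 genes with at least 50 CPM in either set, 376 were at least 2-fold higher in set 2 with an interval off 1 (10.3%) and 277 were lower (7.61%). In fibroblasts the same limits gave 192 of 3282 genes higher (5.85%) and 225 lower (6.86%). The counts given below for each gene list are read beside these shares. The lists shared 43 genes higher in set 2, which is 11.4% of the endothelial and 22.4% of the fibroblast genes, and 43 lower, which is 15.5% and 19.1%. The endothelial cells of set 2 had more UMIs per cell and those fibroblasts fewer, and the part of depth in these counts was not tested.

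MHC class II genes showed the widest gap of any list. All 6 tested members were lower in set 2, with a median log2 ratio of -5.17, and the list summed to 6711 CPM in set 1 and 42.3 CPM in set 2, a ratio of 159. Cd74, the invariant chain that escorts class II molecules, stood at 4627 CPM (4373 to 4892) and 19.0 CPM (13.3 to 26.3), and was detected in 35 of 37 and 9 of 160 endothelial cells. The alpha chain gene H2-Aa stood at 619.9 and 3.17 CPM, a set 1 to set 2 ratio of 196 (88.0 to 541). The beta chain genes H2-Eb1 (605 and 2.64 CPM) and H2-Ab1 (579 and 11.6 CPM) and the peptide-loading gene H2-DMb1 (168 and 1.58 CPM) lay the same way. After each cell was thinned to 2000 UMIs, Cd74 was detected in 34 of 37 cells (91.9%) and in 4 of 159 cells (2.52%), so the gap remained at equal depth.

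Several class II genes were often detected in the same endothelial cell of set 1. Of the genes Cd74, H2-Aa, H2-Ab1 and H2-Eb1, all 4 were detected in 21 of 37 cells of set 1 and in 1 of 160 cells of set 2, and none in 2 and 134 cells. The regulator Ciita had no UMI in endothelial cells of either set. The other cell types of set 1 held these genes too. After thinning, Cd74 was detected in 42.8% of fibroblasts, 29.7% of leukocytes and 61.0% of epithelial cells of set 1, and H2-Aa in 62.2% of endothelial cells against 29.6% of fibroblasts, 14.2% of leukocytes and 32.5% of epithelial cells. As a level, Cd74 stood at 1422 CPM in fibroblasts, 3479 CPM in epithelial cells and 6461 CPM in leukocytes of set 1, and at 341, 16.8 and 9677 CPM in set 2. Leukocytes made up 11.1% of set 1 against 1.79% of set 2, and epithelial cells, with 122552955 UMIs in set 1, carried far more UMIs than the 3774936 of its leukocytes. The part of free RNA from either in the endothelial level was not tested. The fibroblast list sum was 4.38-fold higher in set 1, with 4 of 4 tested genes lower in set 2.

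MHC class I genes and interferon-stimulated genes moved less in endothelial cells. Of 12 class I genes tested, 6 were lower in set 2 and none higher, with a median log2 ratio of -0.99, while in fibroblasts 12 of 12 were lower with a median of -1.80. The classical heavy chain H2-D1 was level at 5068 and 5205 CPM, a ratio of 1.03 (0.970 to 1.09), where fibroblasts gave 0.333. The other classical heavy chain H2-K1 stood at 4231 and 2963 CPM and the light chain B2m at 4321 and 2731 CPM. Non-classical H2-Q7 stood at 1393 and 352 CPM, 3.96-fold higher in set 1 (3.48 to 4.50), and H2-T23 at 956 and 199.7 CPM, 4.79-fold higher (4.07 to 5.63). The H2-Q genes are near-identical copies among which reads may be divided, so each single value is uncertain.

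Of 15 interferon-stimulated genes, 2 were lower in set 2 in endothelial cells, Ifit2 (209 and 87.2 CPM) and Ifit3 (366 and 149 CPM), and 1 was higher. Of all genes tested, 7.61% were lower and 10.3% higher. The interferon-stimulated gene higher in set 2 was Irf7, an inducible regulator of the type I interferon response. It stood at 306 and 893 CPM, a ratio of 2.92 (2.34 to 3.69) against 0.471 in fibroblasts. The membrane protein Bst2 lay the same way in endothelial cells at 900.0 and 1463 CPM, a ratio of 1.63 (1.42 to 1.86) against 0.368 in fibroblasts. In fibroblasts 13 of 14 were lower in set 2, such as the antiviral gene Rsad2 at 178 and 9.46 CPM, which in endothelial cells stood at 773 and 473 CPM. Whether the cell types differ in this was not tested.

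Genes of sprouting vessels were higher in the endothelial cells of set 2. Of 12 tip cell and angiogenic genes tested, 5 were higher in set 2 and none lower, beside 10.3% and 7.61% of all genes. Their median log2 ratio was 0.87. The list summed to 1535 and 3874 CPM, a ratio of 2.52 that in fibroblasts was 1.02. Esm1 (endocan, a secreted proteoglycan of VEGF-exposed endothelium, chr13:113209659-113218104 in RefSeq GRCm38.p6) stood at 202 CPM (151 to 263) and 1384 CPM (1332 to 1438), a ratio of 6.86 (5.24 to 9.16), and was detected in 11 of 37 and 108 of 160 cells. Apln, the apelin ligand on the X chromosome, had no UMI in 37 cells of set 1, and stood at 235 CPM (213 to 257) in 49 of 160 cells of set 2, at least 20.9-fold higher. A single cell gave 25.0% of the Apln UMIs, and without the 23 cells with mural or fibroblast genes the level was 106 CPM. Cxcr4, the receptor of Cxcl12, stood at 22.4 CPM (8.22 to 48.8) and 244 CPM (222 to 267), a ratio of 10.9 (4.96 to 29.8), in 3 of 37 and 94 of 160 cells.

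Other members of the sprouting list differed less. Angpt2 was 2.49-fold higher in set 2 (1.82 to 3.50), in 14 of 37 and 95 of 160 cells, and the basement membrane linker Nid2 was 2.75-fold higher (1.61 to 5.09) at 52.3 and 144 CPM. The Notch ligand Dll4, which restrains sprouting in neighbouring cells, was level at 183 and 164 CPM, with an interval of the ratio from 0.660 to 1.24. The netrin receptor Unc5b stood at 63.5 and 122 CPM and Ramp3, a receptor partner of adrenomedullin, at 153 and 255 CPM. The expression of Esm1, Apln, Cxcr4 and Angpt2 overlapped within cells. At least 3 of these 4 genes were detected in none of 37 cells of set 1, where 8 cells held 2, and all 4 were detected in 35 and 3 of them in 43 of the 160 cells of set 2. The median number of tip list genes per cell was 4 and 7. These cell counts and medians were taken without thinning, and cells of set 2 carried more UMIs. After thinning to equal depth, the median was 2 and 3. Esm1 was then detected in 18.9% and 54.7% of cells and Angpt2 in 13.5% and 30.8%. Cxcr4 was then detected in 2.70% and 32.1%, and Apln in 0% and 9.43%. In thinned leukocytes of sets 1 and 2, Cxcr4 was detected in 25.6% and 25.7% of cells and Esm1 in 8.05% and 0%. Angpt2 was detected in 0.287% and 1.20% of them and Apln in none. The overlap of the 4 genes was not counted after thinning.

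**Figure D3:**
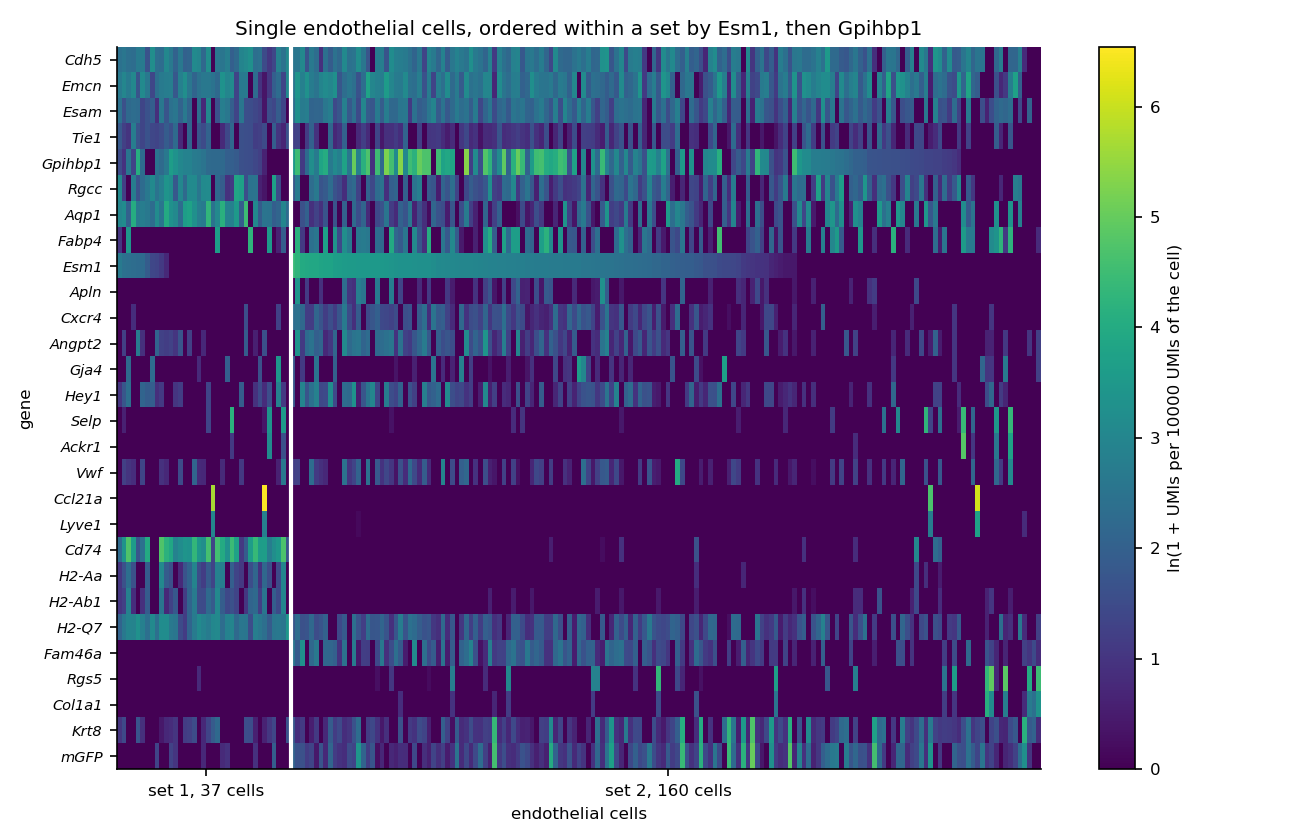
Heat map of deposited natural log values for 28 genes (rows) in the 37 endothelial cells of barcode set 1 and the 160 of barcode set 2 (columns), ordered within each set by Esm1 and then Gpihbp1. Cd74 fills 35 cells of set 1 and 9 cells of set 2, whereas Esm1 marks 11 and 108 cells.

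Capillary and lipid-handling genes did not move together. Gpihbp1 (chr15:75596630-75598213) was 4.30-fold higher in set 2 (3.74 to 4.95) and was detected in 30 of 37 and 131 of 160 cells, so a similar share of cells in each set carried it at different levels. Fabp4 (chr3:10204342-10208616) was 4.37-fold higher in set 2 (3.46 to 5.61), at 269 and 1175 CPM in 7 and 91 cells, and its relative Fabp5 stood at 37.3 and 231 CPM in 4 and 90 cells. The opposite pattern was seen for Aqp1 (chr6:55336299-55348555), at 2222 CPM (2047 to 2408) and 367 CPM (339.8 to 395), 6.06-fold higher in set 1 (5.42 to 6.77), and detected in 36 and 106 cells. Fibroblasts shared that direction, with Aqp1 6.70-fold higher in set 1, but only 9 of 153 and 4 of 236 fibroblasts held a UMI of it. The fatty acid receptor Cd36 stood at 89.6 and 21.1 CPM, the cell cycle regulator Rgcc at 1124 and 545 CPM and the capillary receptor Cd300lg at 246 and 117 CPM. Of 6 capillary genes tested, 1 was higher and 3 were lower in set 2. Among 6 lipid and fluid transport genes, 3 were higher and 2 lower. The shares over all genes were 10.3% higher and 7.61% lower. With every cell given the same weight, Fabp4 stood at 483 and 982 CPM and Aqp1 at 2301 and 578 CPM.

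A few basement membrane genes were higher in set 2. The 13 tested genes summed to 5990.1 and 12976 CPM, a ratio of 2.17, against 4871 and 3912 CPM in fibroblasts, a ratio of 0.803, and whether the cell types differ in this was not tested. Only 3 genes passed 2-fold upwards and 1 downwards, beside 10.3% and 7.61% of all genes, with a median log2 ratio of 0.61. Sparc, a collagen-binding glycoprotein (chr11:55394159-55420080), made up much of the sum and stood at 2909 CPM (2708 to 3121) and 8082 CPM (7955 to 8211), a ratio of 2.78 (2.59 to 2.99) that in fibroblasts was 0.657. The collagen IV chains Col4a1 (1225 and 2173 CPM) and Col4a2 (612 and 1026 CPM) were 1.77-fold and 1.68-fold higher, and Col18a1, the source of endostatin, was 4.05-fold higher (2.50 to 7.01) at 63.5 and 257 CPM. Col15a1 lay the other way at 183 and 89.8 CPM.

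**Figure D4:**
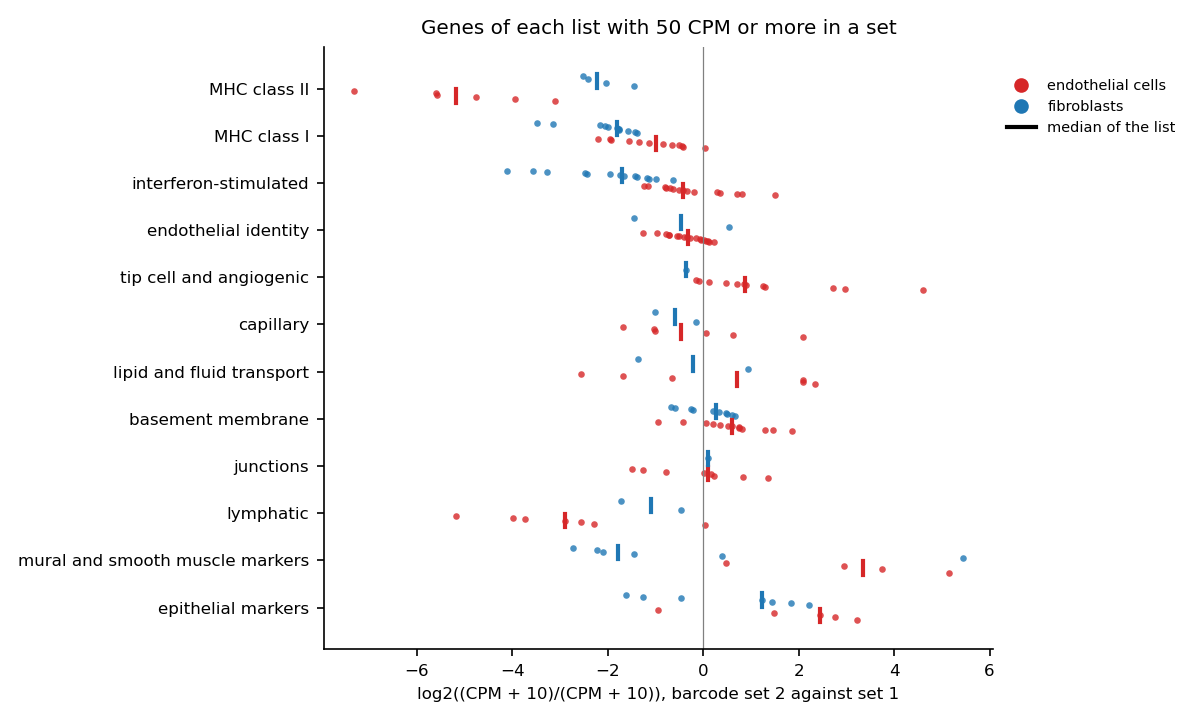
Each point is a gene, placed by its log2 ratio of barcode set 2 to barcode set 1, grouped by gene list, for endothelial cells (red) and fibroblasts (blue), with a bar at each median. The MHC class II genes of endothelial cells lie lowest with a median of -5.17, and the tip cell list lies above 0 with a median of 0.87.

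Vascular tone and clotting genes were mixed. Of 12 tested, 5 were higher and 2 lower in set 2, beside 10.3% and 7.61% of all genes. Endothelin-1 (Edn1), a vasoconstrictor, stood at 142 and 464 CPM, 3.27-fold higher in set 2 (2.36 to 4.66), and its receptor Ednrb at 183 and 286 CPM. Thrombomodulin (Thbd), an anticoagulant surface protein, stood at 310.0 and 121 CPM, whereas its partner receptor Procr stood at 97.1 and 229.8 CPM. The plasminogen activator Plat (85.9 and 249 CPM), the thrombin receptor F2r (97.1 and 236 CPM) and the coagulation inhibitor Tfpi (22.4 and 74.0 CPM) were higher in set 2, and the cyclooxygenase Ptgs1 (131 and 39.6 CPM) was lower. Endothelial nitric oxide synthase (Nos3) stood at 108 and 78.2 CPM.

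Venous and adhesion genes were lower in set 2 where they differed, apart from Cpe, a peptide-processing enzyme, at 11.2 and 76.6 CPM. Of 8 venous genes tested, 3 were lower and 1 higher in set 2, beside 7.61% and 10.3% of all genes. Lrg1, a secreted glycoprotein of inflamed venules, stood at 508 CPM (426 to 601) and 94.0 CPM (80.7 to 109), 5.40-fold higher in set 1 (4.29 to 6.79), in 27 of 37 and 32 of 160 cells. P-selectin (Selp) stood at 310.0 and 136 CPM but in only 6 and 17 cells, and a single cell gave 39.8% and 43.0% of its UMIs. The atypical chemokine receptor Ackr1 (63.5 and 57.1 CPM) was found in 3 and 5 cells. E-selectin (Sele), an inducible adhesion molecule, stood at 101 and 9.51 CPM in 5 and 7 cells. Icam1 (784 and 609 CPM) and Vcam1 (149 and 169 CPM), the ligands of leukocyte integrins, did not pass 2-fold, and of 8 adhesion genes 2 were lower and none higher.

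Junction and signalling lists each held some genes that passed 2-fold between the sets. Over all 3640 genes tested, 10.3% were higher and 7.61% lower in set 2. Of 8 junction genes, Cldn5 (2.44-fold higher in set 1, 2.10 to 2.84) and the adhesion molecule Jam2 (258 and 85.6 CPM) were lower in set 2, and paracingulin Cgnl1 (29.9 and 92.4 CPM) was higher. Of 18 identity genes, Cldn5 and Tie1 were lower and none higher. Part of the Cldn5 level of set 1 came from its 2 cells with at least 4 lymphatic genes, at 3080 CPM. Both were called doublets. Without called doublets, 1 junction gene and 1 identity gene were lower in set 2. Among 7 Notch genes only the ligand Jag1 (48.5 and 125 CPM) passed 2-fold, with Notch1 at 482 and 332 CPM. Among 9 genes of BMP9 and ALK1 signalling only the target Id1 passed, at 2819.5 and 1223 CPM, 2.30-fold higher in set 1 (2.12 to 2.50), beside the receptor Acvrl1 at 523 and 318 CPM. Of 4 caveolar genes only Cav2 (232 and 103 CPM) passed, and of 8 arterial genes Fbln5 (52.3 and 137 CPM) was higher and Cxcl12 (161 and 36.4 CPM) lower. In the VEGF and Tie list, Angpt2 was higher and Tie1 lower among 9 tested.

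Stress genes that differed were higher in set 2, and hypoxia and cycling genes that differed were lower. Over all genes tested, 10.3% were higher and 7.61% lower in set 2. Of 14 immediate early genes, the heat shock genes Hspa1a (89.6 and 200.2 CPM) and Hspa1b (71.0 and 146 CPM) were higher in set 2. This depended on the setting. Without called doublets 1 of the 14 was higher, and with 4 of the 6 rule genes asked for none was. Fos stood at 598 and 372 CPM in endothelial cells against 2170.4 and 2689.8 CPM in fibroblasts, and of the 14 genes 2, Egr1 and Nr4a1, were at least 4-fold lower in endothelial cells in both sets. Of 4 hypoxia genes tested, Ndrg1 (339.8 and 113 CPM) and Ankrd37 (56.0 and 26.4 CPM) were lower in set 2. Cycling genes summed to 198 and 149 CPM, and 1 and 15 cells held a UMI of the proliferation antigen Mki67. Pcna, the replication clamp and the only tested member, stood at 134 and 66.6 CPM and was lower in set 2. It did not pass these limits without the cells with Krt8 at 2 or more.

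The genes that differed most between the sets while being enriched in endothelial cells included several outside these lists. Fam46a, a poly(A) polymerase family gene, had no UMI in set 1 and 398 CPM (370.4 to 428) in 110 of 160 cells of set 2, at least 35.6-fold higher, and in fibroblasts it stood at 164 and 113 CPM. The cell cycle inhibitor Cdkn2b stood at 11.2 and 209 CPM in 2 and 91 cells, and the p53 target Phlda3 at 3.73 and 132 CPM in 1 and 85 cells, where fibroblasts held 148 and 142 CPM. Higher in set 1 were the protease inhibitors Serpina3f (164 and 0 CPM, at least 104-fold) and Serpina3n (105 and 1.06 CPM), the lysophospholipase Gdpd3 (258 and 6.87 CPM, in 24 and 12 cells), the chloride channel protein Clic5 (176 and 16.4 CPM) and the cytokine receptor chain Csf2rb (157 and 15.8 CPM). Cyp1a1, a target of the aryl hydrocarbon receptor, stood at 713 and 107 CPM, with 37.2% of its UMIs in set 1 from a single cell. Csf2rb and Csf2rb2 are close copies among which reads may be divided.

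Several of the 12 genes highest in set 2 were mural or fibroblast genes carried by few cells. Rgs5, a pericyte gene, stood at 3.73 and 476 CPM and was found in 24 of 160 cells of set 2, while its level was 13.5 CPM without the 23 cells that held mural or fibroblast genes. The smooth muscle actin gene Acta2 (0 and 124 CPM) was found in 15 cells, with 54.7% of its UMIs from a single cell, and the collagens Col1a1 (0 and 107 CPM) and Col3a1 (0 and 77.1 CPM) in 17 and 15 cells. Mural markers summed to 239 and 1169 CPM. Of 4 mural genes tested 3 were higher in set 2, and without those cells 1 of 2. Asking for 4 of the 6 rule genes lowered Rgs5 in set 2 to 236 CPM. The 8 cells of set 2 with exactly 3 rule genes held 29.9 CPM of Cdh5 and 89.7 CPM of Emcn. Some of the cells with Rgs5 or collagen may therefore be mural or fibroblast cells that met the rule, which was not tested. Endothelial cells caught with a pericyte or fibroblast and cells that express both sets of genes cannot be told apart here either. Fibroblasts of set 2 also held Rgs5, at 453 CPM.

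The number of subtype genes detected per cell was read beside fibroblasts, which share several of these genes. At least 2 capillary genes were detected in 97.3% and 93.8% of endothelial cells, against 73.2% and 44.5% of fibroblasts, and after thinning to 2000 UMIs in 86.5% and 79.2% against 33.6% and 24.5%. At least 2 tip cell genes were detected in 86.5% and 90.6%, and after thinning in 54.1% and 79.9% against 9.21% and 6.01% of fibroblasts. Arterial genes gave 78.4% and 85.0%, or 45.9% and 48.4% when thinned, against 12.5% and 18.0% of thinned fibroblasts. Venous genes gave 70.3% and 75.6%, close to the 71.2% of fibroblasts in set 1, and 35.1% and 24.5% when thinned against 26.3% and 18.5%. These are ranges on lists with shared genes and not cell types.

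Within set 2, the 49 cells with an Apln UMI differed from the 111 without in much of the sprouting list. Angpt2 stood at 614 CPM with Apln and 202 without (ratio 3.04, 2.59 to 3.58), Trp53i11 at 468 and 94.5 CPM, and the VEGF family ligand Pgf at 218 and 33.7 CPM. Gpihbp1 (5609.6 and 1641 CPM), Igfbp3 (4783 and 1885 CPM) and Sparc (11067 and 5781 CPM) were higher in the same cells, whereas Pecam1 (874 and 843 CPM) and Vwf (199 and 191 CPM) were level. Lower in the cells with Apln were the arterial connexin Gja4 (10.9 and 172 CPM), Stmn2 (6.07 and 109 CPM), Selp (8.49 and 235 CPM), Lrg1 (13.3 and 156 CPM) and Ackr1 (0 and 101 CPM). Cells with Apln had a median of 13144 UMIs and the others 7594, and a deeper cell is more likely to show a UMI of any gene. The split was chosen after the values were seen and describes these cells only.

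The 17 cells of set 2 with a Selp UMI held more venular UMIs per total, though in part from few of them. Against the other 143 cells, Ackr1 stood at 526 and 0.592 CPM but was found in only 4 of the 17 cells, Lrg1 at 565 and 37.3 CPM (ratio 15.2, 11.0 to 20.9) and Vcam1 at 649 and 111 CPM (ratio 5.83, 4.63 to 7.32). Icam1 (1120.2 and 548 CPM) and Vwf (334 and 178 CPM) were higher in them, and Gja4 (9.83 and 113 CPM), Cldn5 (93.4 and 384 CPM) and Esm1 (727 and 1463 CPM) lower. The 29 cells without a Gpihbp1 UMI held more of Stmn2 (341 against 13.8 CPM), Gja4 (351 against 56.3 CPM), Ackr1 (365 against 0.625 CPM) and Rgs5 (1608 against 268 CPM) than the 131 with one. These genes were also found in cells with Gpihbp1, which held 17 of the 24 cells with Rgs5, 13 of the 17 with Selp and 23 of those with Gja4 against 13 outside. The same 29 cells had more Krt8 (2228 against 558 CPM) and mGFP (2708 against 879 CPM). These splits were also chosen after the values were seen.

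Cells with lymphatic genes were few. At least 4 of the 9 lymphatic genes were detected in 2 cells of set 1 and 3 cells of set 2, and in no fibroblast. In set 1, a cell of 23054 UMIs held all 9 and gave 1588 UMIs of Ccl21a, the chemokine of lymphatic vessels, which is 93.8% of that gene's endothelial total in the set. It held 10 UMIs of Prox1, the master regulator of lymphatic fate, 37 of the hyaluronan receptor Lyve1, 54 of Mmrn1 and none of Plvap. Both Ccl21a cells of set 1 were among the called doublets, and without called doublets Ccl21a had no UMI there. In set 2, a cell of 14142 UMIs held all 9 genes and one of 3439 UMIs held 8, with 154 and 158 UMIs of Ccl21a. The level of Ccl21a, 6322 and 165 CPM, and the 6 of 7 lymphatic genes lower in set 2, rest on these few cells. Ccl21a also has near-identical copies in the genome, so its counts are uncertain.

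Receptors and binding proteins of the IGF1 axis lay partly in endothelial cells. Of 9 genes tested, 1 was 4-fold above fibroblasts and 5 below, beside 8.75% and 6.99% of all genes tested. Between the sets none of 5 passed 2-fold. Without called doublets, or with 4 of the 6 rule genes asked for, 1 of 5 was higher in set 2. The insulin receptor Insr stood at 108 and 72.4 CPM against 6.71 and 13.5 CPM in fibroblasts, and Igf1r at 33.6 and 38.6 CPM against 30.2 and 68.9. Igf1 itself stood at 3.73 and 37.0 CPM against 521 and 280.4 CPM in fibroblasts. The binding protein Igfbp7 was level between the sets at 10796 CPM (10406 to 11197) and 10889 CPM (10741 to 11039), with 6809 and 5853 CPM in fibroblasts, and Igfbp3 stood at 2203 and 3147 CPM against 715 and 749, a set ratio of 1.43 (1.31 to 1.56). Igfbp5 (29.9 and 56.0 CPM) and Igfbp6 (3.73 and 9.51 CPM) were fibroblast genes, with 3443 and 709 CPM and 1042 and 1343 CPM there.

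Wnt pathway genes differed from fibroblasts in part and were similar between the sets. Fzd4, the norrin and Wnt receptor, stood at 116 and 138 CPM against 2.68 and 6.76 CPM in fibroblasts, and its partner Tspan12 at 149 and 135 CPM. Beta-catenin (Ctnnb1) stood at 571 and 765 CPM against 255 and 229.7. The feedback target Axin2 had no UMI in set 1 and 28.5 CPM in set 2, where fibroblasts held 61.5 and epithelial cells 165 CPM. Of 8 Wnt genes tested 2 were 4-fold above fibroblasts and 1 below, beside 8.75% and 6.99% of all genes tested. None of 7 passed 2-fold between the sets.

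Osr1, the gene that drives Cre, had no UMI in endothelial cells of either set. The glucocorticoid receptor Nr3c1 stood at 239 and 140.0 CPM. The hARtg sequence stood at 48.5 CPM (25.8 to 83.0) and 203 CPM (183 to 224), detected in 9 of 37 cells (24.3%) and 74 of 160 (46.2%). In leukocytes, used as the background for free RNA and with medians of 3803 and 7481.5 UMIs against 6403 and 9323, it was detected in 4.53% and 33.9%. After thinning to 2000 UMIs the shares were 13.5% and 18.2% in endothelial cells and 1.72% and 18.6% in leukocytes, so in set 2 the endothelial share did not exceed the background. In set 1 it stood above the background, on 9 cells and 13 UMIs before thinning.

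The reporter was likewise no more often detected than in leukocytes of set 2 after thinning. mGFP stood at 44.8 CPM (23.2 to 78.3) and 1163 CPM (1115 to 1212) in endothelial cells, against 1227 and 9784 CPM in epithelial cells. It was detected in 21.6% and 90.6% of endothelial cells and 14.2% and 86.3% of leukocytes, and after thinning in 10.8% and 48.4% against 7.47% and 50.3%. Per cell, mGFP in set 2 had a median of 1.27 and a highest value of 5.01 on the natural log scale. The 27 of 160 cells with Krt8 at 2 or more, a limit chosen after the values were seen, gave 84.1% of the mGFP UMIs and 78.4% of the hARtg UMIs, and without them mGFP stood at 226 CPM and hARtg at 53.3 CPM. Those 27 cells had 757 CPM of Cdh5 against 1228 CPM in the other 133, and 2 of them were called doublets. Over all 160 cells, the level in endothelial cells of set 2 was 11.9% of the epithelial level (11.4 to 12.4) for mGFP and 14.2% (12.8 to 15.7) for hARtg. Epithelial genes that endothelium should lack stood at 9.96% for Krt8, 8.96% for Krt18, 11.0% for Cldn3, 8.10% for Cldn4, 6.65% for Cldn7 and 3.31% for Krt19. In leukocytes of set 2 the same shares were 4.35% for mGFP, 5.36% for hARtg and 3.80% for Krt8, and in fibroblasts 25.4%, 27.3% and 24.2%. Without the 27 cells the endothelial values of set 2 were 2.30% for mGFP (2.07 to 2.56) and 3.73% for hARtg (2.97 to 4.62), beside 2.16% for Krt18 (1.90 to 2.44) and 2.09% for Cldn3 (1.42 to 2.97). In set 1 the endothelial shares were 3.65% for mGFP (1.89 to 6.38), 25.8% for hARtg (13.8 to 44.2) and 1.88% for Krt8.

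**Figure D5:**
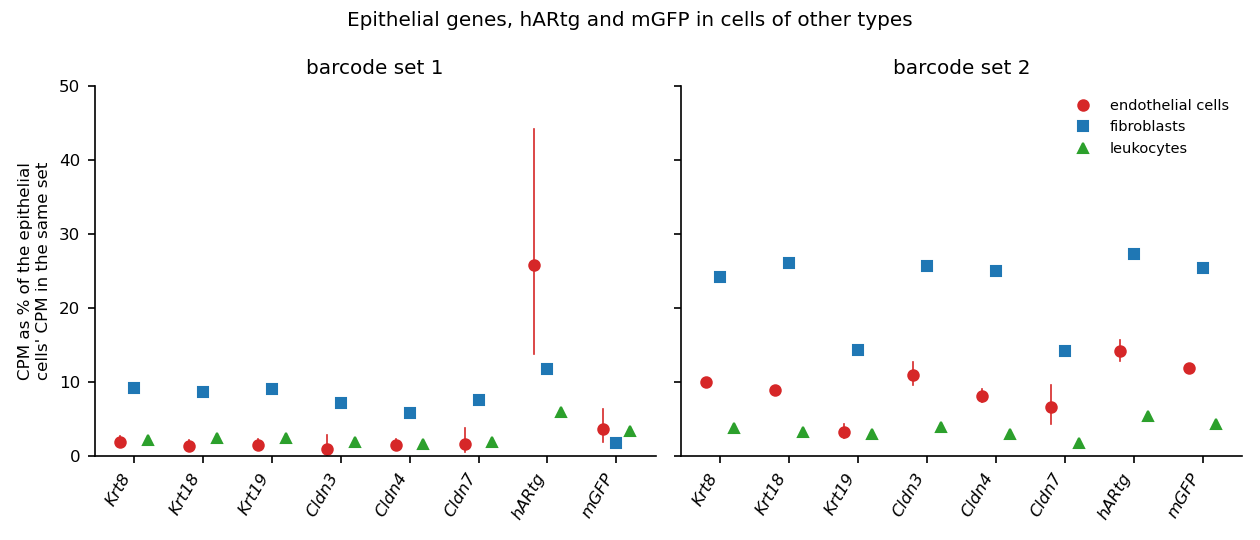
Level of epithelial genes, hARtg and mGFP as a percentage of their level in epithelial cells of the same barcode set, in endothelial cells (with 95% counting intervals), fibroblasts and leukocytes. In set 2 the endothelial values of mGFP (11.9%) and hARtg (14.2%) lie above those of the 6 epithelial genes (3.31% for Krt19 to 11.0% for Cldn3, whose interval of 9.57 to 12.7 overlaps that of mGFP), and in set 1 hARtg (25.8%) stands above the others with a wide interval.

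Epithelial markers as a list moved between the sets in both stromal types. In endothelial cells 4 of 5 tested were higher in set 2 and 1 lower, and the list summed to 351 and 1873 CPM, whereas without the cells with Krt8 at 2 or more 1 of 4 was higher and 2 were lower. In fibroblasts 4 of 7 were higher and 2 lower, with sums of 2050.3 and 5122 CPM. Of 4 luminal secretory genes tested in endothelial cells, the glutathione transferase Gsta3 (0 and 51.2 CPM) was higher and the secreted protein gene Msmb (127 and 5.28 CPM) lower in set 2, which was also the direction of Msmb in epithelial cells (6675 and 77.4 CPM). The part of free RNA or doublets in these values was not tested.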

How the data were processed

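Prostate tissue of 2 samples, 1 with PIN and 1 with PCa, was dissociated with collagenase and TrypLE and profiled in droplets with 3′ UMI counting. Per the submitters' processing notes, the authors used Cell Ranger 3.1.0 and mm10, with mGFP and hARtg sequences added, and filtered cells in Seurat by gene number, mitochondrial share and likely doublets or empty droplets. The deposited values are natural log values, ln(1 + 10000 × UMIs / total of the cell), for 19320 features and 15742 cells. The rows named ARQ and EGFP were read as hARtg and mGFP. Back-transformation gave whole UMIs for 100.0% of 56988269 values above 0 (tolerance 0.001), with 134850345 UMIs in set 1 and 187280119 in set 2, at least 1002 genes per cell and at most 9.99% mitochondrial UMIs. There were 67 barcode sequences in both sets. The size of set 1 equals the number of cells that the study gives for the PIN tissue and that of set 2 lies just below the number for PCa, but a cell number is no label, so no tissue was assigned.

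UMIs were summed per group as CPM with exact Poisson intervals, shares were given Clopper-Pearson intervals, and ratios conditional binomial intervals at 95%, all for counting error only. Genes were compared with fibroblasts at a minimum of 50 CPM on either side in both sets and a fold of 4 in both, and between sets at 50 CPM in either set, a fold of 2 and an interval off 1. Log2 ratios and list medians used a pseudocount of 10 CPM. Leukocytes were cells with Ptprc above 0 and Epcam at 0, and epithelial cells had Epcam at 1 or more and Ptprc at 0. Scrublet scores came from scanpy 1.11.5, and called doublets were kept in the main values. The ratios and their intervals were tried only on simulated Poisson counts of pooled totals. The variance of real UMIs over that of a Poisson model had a median of 1.19 in set 1 and 1.37 in set 2. The simulation therefore does not cover the spread between cells. No p-value was computed, since cells are not replicates.

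Genes were named from 31 lists and as the 15 highest and 15 lowest against fibroblasts, the 12 highest and 12 lowest between sets among genes with at least 2 times the level over all cells, the 15 most variable among endothelial cells and the 3 highest over all cells. Members, lists and rules were chosen with earlier results of these data known. Promoters came from RefSeq (GRCm38.p6), 250 bases before each start. Alternatives left out called doublets, asked for 2 or 4 of the 6 genes, left out cells with fibroblast markers, weighed cells equally, changed totals, the low-level filter, the pseudocount or the number of subtype genes, or thinned cells to 2000 UMIs. Python 3.11.15, numpy 2.4.6, scipy 1.17.1, pandas 2.3.3 and matplotlib 3.10.9 were used.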

Additional observations from a re-analysis of the deposited data

How the results depend on the processing

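Of the recomputed shares, counts, transgene and reporter values, 137 stayed close to the reported value and 27 moved. Asking for 2 of the 6 genes raised the endothelial share of set 2 to 2.06%. A minimum of 20 CPM gave 419 genes lower than in fibroblasts and 687 genes higher in set 2. After thinning to 2000 UMIs, cells with at least 2 subtype genes were 45.9% and 48.4% for arterial, 35.1% and 24.5% for venous and 54.1% and 79.9% for tip cell genes in sets 1 and 2, and in set 2 79.2% for capillary and 1.26% for lymphatic genes, while in set 2 hARtg was detected in 18.2% and mGFP in 48.4% of cells. Asking for 3 genes gave 56.8% and 69.4% for arterial, 51.4% and 49.4% for venous, 83.8% and 81.2% for capillary genes, and 1.88% for lymphatic genes in set 2. In set 2, equal weights for cells gave 157 CPM of hARtg and 916 CPM of mGFP, and mGFP stood at 1016 CPM without called doublets and 1235 CPM with totals that leave out genes above 1%. Without the cells with Krt8 at 2 or more, also chosen after seeing the data, the endothelial share of set 2 was 1.41%, hARtg stood at 53.3 CPM and mGFP at 226 CPM there, and 368 genes were higher and 250 lower in set 2. Of the recomputed log2 ratios of named genes, 611 stayed close, 140 moved and 5 reversed. Without called doublets, the log2 ratio of set 2 to set 1 became 4.15 for Ccl21a, 1.63 for Mmrn1 and 0.85 for Pdpn. Without the cells with lymphatic genes, an alternative chosen after seeing the data, the log2 ratio of set 2 to set 1 became 0.21 for Pdpn, and the log2 ratio of Ccl21a against fibroblasts in set 2 became -0.18. These reversals come with the removal of 2 and 3 cells that held most of those UMIs.

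No paired analysis was possible because each tissue has 1 library and no test was run. The 37 endothelial cells of set 1 held 267774 UMIs against 1893023 in set 2, so the limit for a gene at 0 in set 1 is 11.2 CPM. Values of single genes carried by few cells, such as Selp, Ackr1, Sele, Acta2 and Ccl21a, depend on those cells. The sets cannot be told apart from tissue, age or library.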
